A study of Mus musculus with 9 samples.

Results

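Fatty acid oxidation and carnitine shuttle genes were followed in heart tissue of C57BL/6 mice treated with oxaliplatin, a platinum compound of cancer chemotherapy. The set held 35 genes chosen by symbol, from carnitine uptake through the mitochondrial spiral to peroxisomal oxidation, and 35 of 35 were found among the 13795 genes of the deposited table, which gives normalized counts. There were 5 samples of mice given oxaliplatin at 10 mg/kg and 4 samples of mice given vehicle, and the series' design text states that hearts were taken after 8 weeks of treatment and that RNA had an integrity above 8. The labels give no age, sex or vehicle composition, and nothing says whether each sample came from a separate animal. The p-values thus cover the variation among these libraries alone, part of which may be technical. Both groups were heart tissue in bulk, in which a lower level can come from fewer cells of a type or from less RNA per cell, and these cannot be told apart.

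In heart muscle, long-chain fatty acids are activated to acyl-CoA, handed to carnitine at the outer mitochondrial membrane, carried across the inner membrane and returned to coenzyme A in the matrix. There each turn of the spiral removes an acetyl unit through an acyl-CoA dehydrogenase, a hydratase, a hydroxyacyl-CoA dehydrogenase and a thiolase, and electrons pass through the electron transfer flavoprotein to ubiquinone. Auxiliary enzymes handle double bonds, and peroxisomes shorten very long and branched chains. Fatty acid oxidation is known as the main source of ATP in adult heart.

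In oxaliplatin samples 16 of the 35 genes were lower and 0 were higher (limma, Benjamini-Hochberg adjusted p under 0.05 over 13788 genes), and 33 had a negative log2 fold change, as had 52.3% of all genes tested. The share that was lower was 45.7%, against 5.03% of all genes tested, while 9.23% of all genes tested were higher. Their median log2 fold change was -0.42, beside -0.021 over all genes tested. Groups did not overlap for 16 of the 35, each lower in oxaliplatin samples, where 5.93% of all genes tested were lower and 8.99% higher without overlap. The genes that were lower came from most steps, including Cpt2, Crat, Hadha, Ech1, Acads and Acot2. The 35 genes took 1.53 ± 0.130% of normalized counts in oxaliplatin samples and 1.99 ± 0.0383% in vehicle samples (SD, n = 5 and n = 4). In no oxaliplatin sample did this share reach that of a vehicle sample. The count of lower genes was 8 without vehicle 2 (2.7% of all genes lower), 9 without vehicle 3 (2.33%), 10 without oxaliplatin 3 (3.5%) and 10 without oxaliplatin 4 (2.88%). It was 3 when each sample was centred on 12 cardiomyocyte markers (0.87% of all genes lower), 4 without vehicle 1, oxaliplatin 2 and oxaliplatin 4 (3.57%), which had high atrial markers, and 6 with an erythroid marker score as a covariate (1.78%). The cardiomyocyte markers had a median log2 fold change of -0.34, and 2 of the 12 fell.

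**Figure D1:**
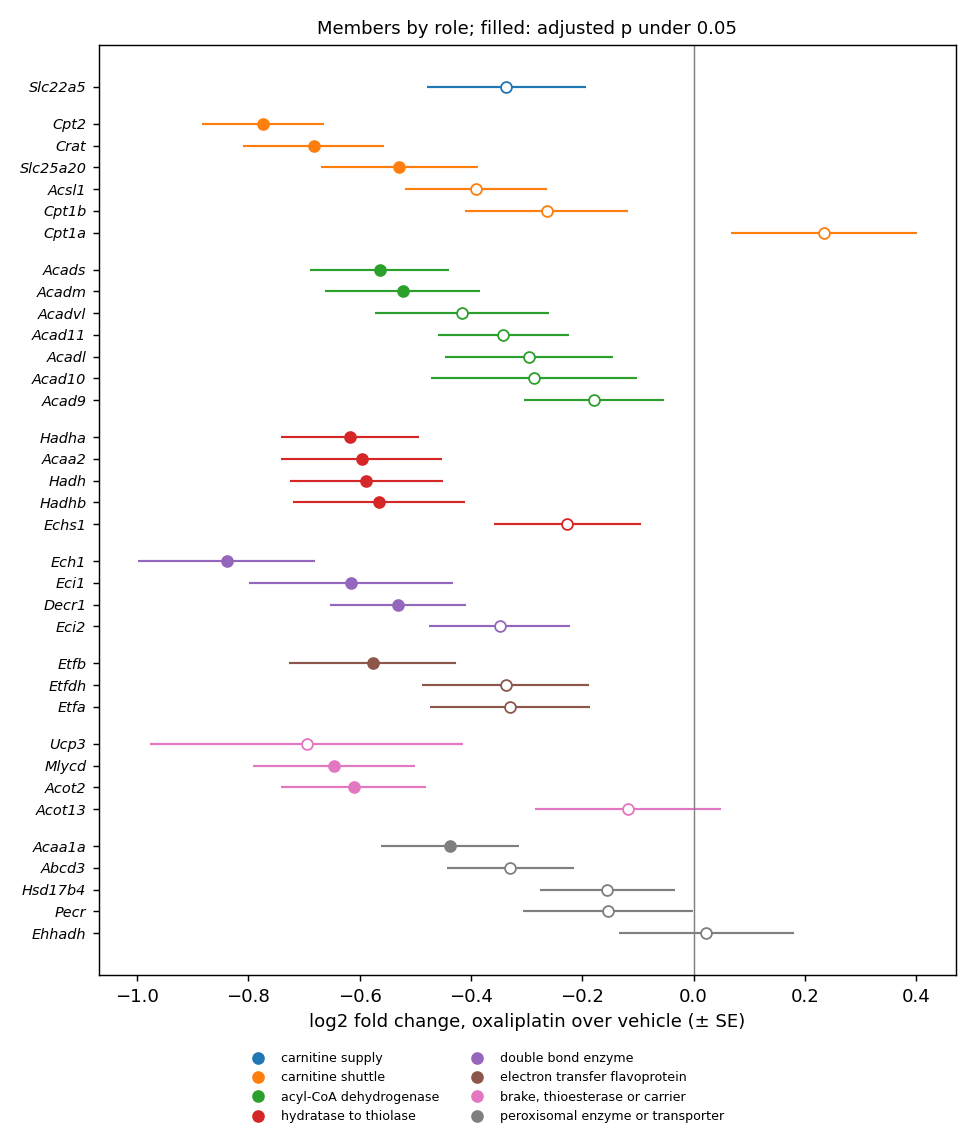
Log2 fold change (oxaliplatin over vehicle, x axis) of the 35 genes grouped by role, with bars of 1 standard error; filled points have an adjusted p under 0.05. Points lie between -0.84 for Ech1 and 0.23 for Cpt1a, and the 16 filled points are all left of 0 on the deposited scaling.

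Totals of normalized counts ran from 29409543 to 36127712 in oxaliplatin samples and from 30099346 to 36949836 in vehicle samples, and an estimated 28500000 to 36200000 reads lay behind each sample. Cardiomyocyte markers such as Myh6, Tnnt2 and Actc1 were present in every sample, with a summed level of 1308550.3 to 1834255 normalized counts in oxaliplatin samples and 1654764 to 2031813 in vehicle samples. Some samples stood apart in other tissue. The summed level of 10 atrial markers was 927382 normalized counts in oxaliplatin 2, 934585 in oxaliplatin 4 and 452469.5 in vehicle 1, with at most 160693 elsewhere, and Ucp1, the uncoupling protein of brown fat, had 651 normalized counts in oxaliplatin 2 and at most 1.75 in any other sample. Erythroid markers were lower in sum in 4 of the 5 oxaliplatin samples than in any vehicle sample. Exons of Cpt1b, Crat, Acadvl, Acad9, Acad11, Hadha, Eci2 and Etfb overlap exons of another gene, and how strand was handled is not known, so their values may hold reads of that gene.

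The bases just before the first exon are shown for 4 genes that fell, the trifunctional protein pair Hadha and Hadhb, which are transcribed away from a shared start region, Cpt2, which had the smallest p of the 35, and Ech1, which had the largest fall. RefSeq start sites of the pair on GRCm38.p6 lie 273 bases apart, and the gap between their annotated exons is chr5:30155163-30155247, printed on the plus strand, that of Hadhb. For Cpt2 the stretch before its exons is chr4:107923611-107923839, printed on the minus strand. For Ech1 it is chr7:28825088-28825216, printed on the plus strand. Capitals mark the GC box GGGCGG.
Hadha-Hadhb gap: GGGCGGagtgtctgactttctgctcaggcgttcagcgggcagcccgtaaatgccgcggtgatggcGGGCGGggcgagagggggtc
Cpt2 upstream: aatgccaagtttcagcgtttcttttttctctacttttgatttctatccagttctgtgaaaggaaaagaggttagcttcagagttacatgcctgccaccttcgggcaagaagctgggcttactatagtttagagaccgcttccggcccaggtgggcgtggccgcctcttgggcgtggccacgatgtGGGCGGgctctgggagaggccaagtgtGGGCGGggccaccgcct
Ech1 upstream: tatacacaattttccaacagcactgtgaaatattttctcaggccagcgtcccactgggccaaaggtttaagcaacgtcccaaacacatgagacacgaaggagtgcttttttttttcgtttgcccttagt
The gap and the stretch of Cpt2 held 2 GC boxes each, with 69.4% and 55.5% G and C bases. The stretch of Ech1 held 0, with 43.4%. The start window of Ech1, as defined next, did hold a GC box, which the printed stretch leaves out. RefSeq start windows, from 250 bases before to 50 after the start, were found for 28 of the 35 genes, and GGGCGG stood on either strand in 20 of them (71.4%), beside 38.2% of 27025 symbols with such a window. The TATA box TATAAA was in 0 of 28 windows, beside 15.7% of all symbols, and CCAAT in 13 (46.4%), beside 41.1%. The element TNAAGGTCA of estrogen-related receptors was in 0 of the 28 and in 1.43% of all symbols, and the direct repeat of PPAR receptors, AGGNCA and again AGGNCA with 1 base between them, in 0 and in 0.451%. The 27025 symbols were not limited to genes measured in these hearts, whereas the 28 genes were all measured. The shares thus compare unlike sets, and a comparison with measured genes alone was not made. All of these are matches of letters in short windows, and elements farther away were not searched.

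Carnitine shuttle genes fell in part. Of the 6, 3 fell, 0 rose and 3 did not pass, and the gene of the step inside the inner membrane changed most. Cpt2, the carnitine palmitoyltransferase that returns acyl groups to coenzyme A in the matrix, had 6414, 7044, 6408, 5606 and 6946 normalized counts in oxaliplatin samples 1 to 5, against 10606, 11865, 11335 and 10441 in vehicle samples 1 to 4. Every oxaliplatin sample lay below every vehicle sample by a wide gap (log2 fold change -0.77, SE 0.11, limma adjusted p = 0.00111, where SE is the standard error of the fold change). Crat, carnitine acetyltransferase, which passes acetyl and other short acyl groups to carnitine and lies on GRCm38 chromosome 2 from 30400471 to 30415813 in GENCODE M21, had 11471, 10209, 9909, 8222 and 11876 normalized counts in oxaliplatin samples 1 to 5, against 15330.0, 17064, 17404 and 16120.5 in vehicle samples 1 to 4. Its groups were also apart (log2 fold change -0.68, SE 0.13, limma adjusted p = 0.00448). Slc25a20, the carnitine-acylcarnitine carrier of the inner membrane, had 7813, 5491, 5724, 5426 and 7664 normalized counts in oxaliplatin samples 1 to 5, against 9211, 9926, 9377 and 8140.4 in vehicle samples 1 to 4. The groups did not overlap, with oxaliplatin 1 and 5 nearest to vehicle (log2 fold change -0.53, SE 0.14, limma adjusted p = 0.0249), but its call was lost without oxaliplatin 3 (0.0617), oxaliplatin 4 (0.0619), vehicle 1 (0.0595), vehicle 2 (0.0808) and vehicle 3 (0.0728), each with its limma adjusted p.

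The outer membrane genes did not pass. Cpt1b, the muscle form of the malonyl-CoA sensitive palmitoyltransferase that commits acyl groups to the shuttle, had 24526, 16833, 15826, 16682 and 20628 normalized counts in oxaliplatin samples 1 to 5, against 23226, 24401, 22337 and 19809.7 in vehicle samples 1 to 4. Oxaliplatin 1 held the highest value of all 9 samples, and oxaliplatin 2, 3 and 4 lay below every vehicle sample (log2 fold change -0.26, SE 0.15, limma adjusted p = 0.257). Cpt1a, the form that predominates in liver, had 668, 930.0, 802, 1187 and 829.4 normalized counts in oxaliplatin samples 1 to 5, against 786, 821, 560.4 and 818 in vehicle samples 1 to 4. It was highest in oxaliplatin 4 and lowest in vehicle 3, and the groups overlapped (log2 fold change 0.23, SE 0.17, limma adjusted p = 0.385). Acsl1, which activates long-chain fatty acids, had groups that did not overlap, at 11899 ± 1571 normalized counts in oxaliplatin samples and 15513 ± 1123 in vehicle samples (mean ± SD, n = 5 and n = 4, as for all means below), and missed the threshold (-0.39, adjusted p = 0.0574), while it passed without oxaliplatin 1 (0.0274). Slc22a5, the plasma membrane carnitine transporter, had 364, 595, 435, 419 and 439 normalized counts in oxaliplatin samples 1 to 5, against 519.5, 599, 619 and 516 in vehicle samples 1 to 4. Oxaliplatin 2 lay within the vehicle range and the other 4 oxaliplatin samples lay below it (log2 fold change -0.34, SE 0.14, limma adjusted p = 0.138), and without that sample the gene passed (adjusted p = 0.0278).

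**Figure D2:**
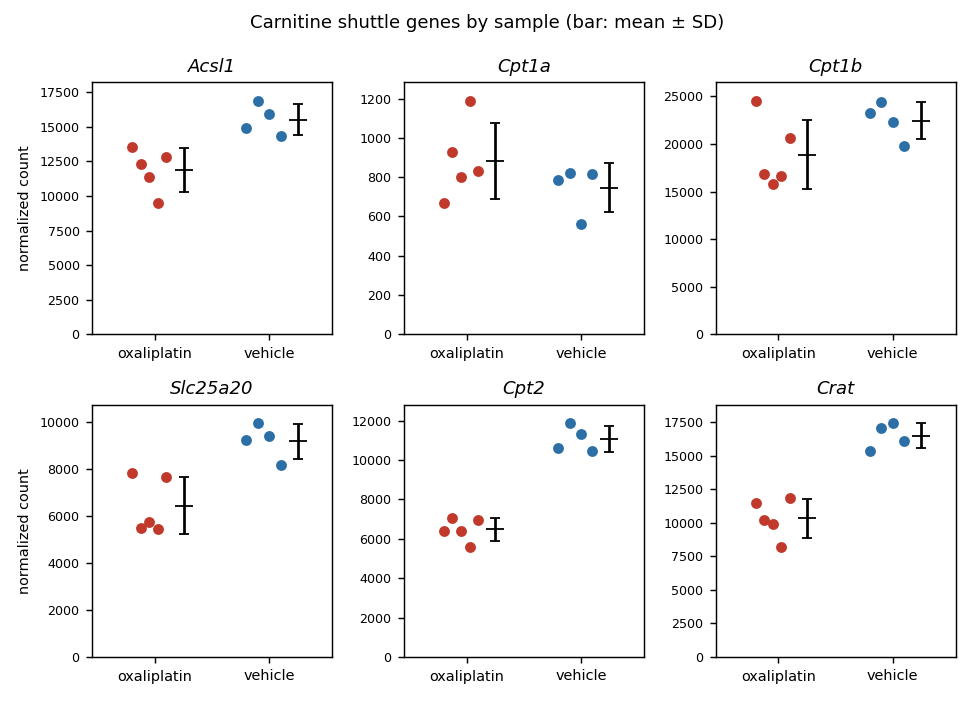
Normalized counts (y axis, from 0) of 6 carnitine shuttle genes in each oxaliplatin and vehicle sample, with the mean ± SD beside the points. Cpt2, Crat, Slc25a20 and Acsl1 have no overlap between groups, whereas Cpt1a and Cpt1b overlap.

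Acyl-CoA dehydrogenases catalyse the step that opens each turn. Of the 7 genes, 2 fell, 0 rose and 5 did not pass, and the 2 were the short-chain and medium-chain enzymes. Acads, for short chains, had 3807, 2859, 2989.6, 2759 and 3737 normalized counts in oxaliplatin samples 1 to 5, against 4336, 4905, 5073 and 4636 in vehicle samples 1 to 4. All oxaliplatin samples were below all vehicle samples (log2 fold change -0.56, SE 0.12, limma adjusted p = 0.0103). Acadm, for medium chains, had 28802, 21567, 20812, 19000.5 and 23766 normalized counts in oxaliplatin samples 1 to 5, against 31206, 36018, 33663 and 29142 in vehicle samples 1 to 4. The highest oxaliplatin sample, number 1, lay just under the lowest vehicle sample, number 4 (log2 fold change -0.52, SE 0.14, limma adjusted p = 0.0254), and the call was lost without oxaliplatin 3 (0.0629), oxaliplatin 4 (0.0639), vehicle 1 (0.0531), vehicle 2 (0.0866) and vehicle 3 (0.0765). Acad11, described for longer chains and hydroxylated acids, had 4428, 3979.8, 3800.1, 3081 and 3665 normalized counts in oxaliplatin samples 1 to 5, against 4649, 4845, 5198 and 4426 in vehicle samples 1 to 4, with oxaliplatin 1 just above vehicle 4, and it did not pass (log2 fold change -0.34, SE 0.12, limma adjusted p = 0.0712) except without oxaliplatin 1 (0.0288). The very-long-chain enzyme Acadvl averaged 51296 ± 10836 normalized counts in oxaliplatin samples and 67422 ± 4656 in vehicle samples and did not pass (-0.42, adjusted p = 0.0958), but did so without oxaliplatin 1 (0.0199). The long-chain enzyme Acadl had a log2 fold change of -0.30, adjusted p = 0.219, Acad10 one of -0.29, adjusted p = 0.330, and Acad9, which also serves complex I assembly, one of -0.18, adjusted p = 0.379.

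Genes of the later steps of the spiral fell in 4 of 5 cases, 0 rose and 1 did not pass. Hadha, the alpha subunit of the trifunctional protein with hydratase and long-chain dehydrogenase activity, had 25276, 20894, 20852, 18703 and 23756 normalized counts in oxaliplatin samples 1 to 5, against 33238, 36231, 32270.2 and 32034 in vehicle samples 1 to 4. The groups stood well apart (log2 fold change -0.62, SE 0.12, limma adjusted p = 0.00635). Hadh, the hydroxyacyl-CoA dehydrogenase for medium and short chains, had 18832, 14654, 14664, 12932 and 17038 normalized counts in oxaliplatin samples 1 to 5, against 22985, 26267, 24084 and 20211 in vehicle samples 1 to 4. Its groups did not overlap (log2 fold change -0.59, SE 0.14, limma adjusted p = 0.0130), and its call was lost without vehicle 2 (0.0522). Acaa2, the mitochondrial thiolase, had 42476, 34927, 33430.1, 29709 and 41928 normalized counts in oxaliplatin samples 1 to 5, against 52786, 61589.5, 58200.5 and 47159 in vehicle samples 1 to 4. Oxaliplatin samples were again all below vehicle samples (log2 fold change -0.60, SE 0.14, limma adjusted p = 0.0160), with the call lost without vehicle 2 (0.0620) and vehicle 3 (0.0571). Hadhb, the thiolase subunit of the trifunctional protein, averaged 55323 ± 9012 normalized counts in oxaliplatin samples and 81571 ± 11073 in vehicle samples, with oxaliplatin 1 above vehicle 4 (-0.56, adjusted p = 0.0280), and lost its call without oxaliplatin 3 (0.0670), oxaliplatin 4 (0.0687), vehicle 1 (0.0730), vehicle 2 (0.0953) and vehicle 3 (0.0765). Echs1, the short-chain hydratase, did not pass (-0.23, adjusted p = 0.279).

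Among the 4 auxiliary genes for double bonds, 3 fell, 0 rose and 1 did not pass. Ech1, a dienoyl-CoA isomerase of mitochondria and peroxisomes, lies on chromosome 7 from 28825217 to 28832247 and had the largest fall of the 35. It had 62849.9, 52776, 51057, 40354 and 59758 normalized counts in oxaliplatin samples 1 to 5, against 92336, 108556, 102218 and 77389.8 in vehicle samples 1 to 4. The oxaliplatin mean was 56.1% of the vehicle mean, and the groups did not overlap (log2 fold change -0.84, SE 0.16, limma adjusted p = 0.00480). Decr1, the dienoyl-CoA reductase, had 6173, 5169.8, 5079.7, 4755 and 6231 normalized counts in oxaliplatin samples 1 to 5, against 7762, 8779, 8145 and 6930.3 in vehicle samples 1 to 4. Oxaliplatin samples were all lower (log2 fold change -0.53, SE 0.12, limma adjusted p = 0.0122). Eci1, an enoyl-CoA isomerase, had 11845, 7228, 6806, 6439 and 10463 normalized counts in oxaliplatin samples 1 to 5, against 12309, 13708, 14157 and 10914 in vehicle samples 1 to 4. Oxaliplatin 1 reached into the vehicle range (log2 fold change -0.62, SE 0.18, limma adjusted p = 0.0412), and the call was lost without oxaliplatin 2 (0.0638), oxaliplatin 3 (0.0954), oxaliplatin 4 (0.0944), vehicle 1 (0.0771), vehicle 2 (0.108) and vehicle 3 (0.119). Its paralog Eci2 averaged 4638 ± 602 normalized counts in oxaliplatin samples and 5898 ± 689 in vehicle samples and did not pass (-0.35, adjusted p = 0.0834), but just passed without vehicle 4 (0.0495).

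Of the 3 genes that take electrons from the dehydrogenases to ubiquinone, 1 fell. Etfb, the beta subunit of the electron transfer flavoprotein, had 38866, 30323, 27842, 25123 and 34335 normalized counts in oxaliplatin samples 1 to 5, against 42938, 48092, 53190.0 and 41220.0 in vehicle samples 1 to 4. Its groups did not overlap (log2 fold change -0.58, SE 0.15, limma adjusted p = 0.0217), with the call lost without oxaliplatin 3 (0.0562), oxaliplatin 4 (0.0547), vehicle 2 (0.0673) and vehicle 3 (0.0808). Etfa, the alpha subunit of the same heterodimer, had 31644, 21849.6, 23048, 22348 and 27846 normalized counts in oxaliplatin samples 1 to 5, against 29348, 33942, 35032 and 28265 in vehicle samples 1 to 4, and oxaliplatin 1 lay within the vehicle range (log2 fold change -0.33, SE 0.14, limma adjusted p = 0.146). Etfdh, the flavoprotein's ubiquinone oxidoreductase, had 22592, 15860.1, 15654, 14617 and 18602 normalized counts in oxaliplatin samples 1 to 5, against 21675, 24436, 23307 and 18273 in vehicle samples 1 to 4, with oxaliplatin 1 and 5 inside that range (log2 fold change -0.34, SE 0.15, limma adjusted p = 0.154). Both passed without oxaliplatin 1 (adjusted p = 0.0395 for Etfa and 0.0339 for Etfdh).

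Genes around the pathway changed in 2 of 4 cases, both lower. Mlycd, which breaks down malonyl-CoA, the inhibitor of Cpt1, had 419, 507, 378, 509 and 482 normalized counts in oxaliplatin samples 1 to 5, against 608, 628, 745 and 914 in vehicle samples 1 to 4. Every oxaliplatin sample was below every vehicle sample (log2 fold change -0.65, SE 0.15, limma adjusted p = 0.0111). Acot2, a thioesterase of the matrix that releases free long-chain acids, had 2875, 2756, 2606, 2509 and 3814 normalized counts in oxaliplatin samples 1 to 5, against 4085, 4728, 4679 and 4134 in vehicle samples 1 to 4. Oxaliplatin 5 stood above the other 4 oxaliplatin samples and below vehicle (log2 fold change -0.61, SE 0.13, limma adjusted p = 0.00846). Acot2 has close paralogs next to it, Acot1 among them, and reads shared between them make its value uncertain. Ucp3, an uncoupling protein of muscle, had 389.5, 1117, 702, 903 and 858 normalized counts in oxaliplatin samples 1 to 5, against 1146, 1573, 1354 and 889 in vehicle samples 1 to 4. It was lowest in oxaliplatin 1, a sample that was high for most other genes of the set, and the groups overlapped (log2 fold change -0.69, SE 0.28, limma adjusted p = 0.130). Acot13 did not pass (-0.12, adjusted p = 0.681).

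Peroxisomal genes were lower in 1 of 5 cases. Acaa1a, the peroxisomal thiolase, had 2243, 1759, 1678, 1797 and 2307 normalized counts in oxaliplatin samples 1 to 5, against 2378, 2504, 2749 and 2909 in vehicle samples 1 to 4. The groups did not overlap by a narrow margin (log2 fold change -0.44, SE 0.12, limma adjusted p = 0.0336), its call was lost without oxaliplatin 2 (0.0522), oxaliplatin 3 (0.0832), oxaliplatin 4 (0.0780), vehicle 2 (0.0671), vehicle 3 (0.0980) and vehicle 4 (0.0763), and its near-identical copy Acaa1b may share its reads. Abcd3, a transporter of the peroxisomal membrane, had 2208, 2337, 2105, 1804 and 2216 normalized counts in oxaliplatin samples 1 to 5, against 2492, 2845, 3002 and 2390.1 in vehicle samples 1 to 4. Its groups did not overlap either, and it missed the threshold (log2 fold change -0.33, SE 0.11, limma adjusted p = 0.0701). Hsd17b4, the peroxisomal multifunctional enzyme for very long and branched chains, had 2961, 2253, 2335, 2222 and 2809 normalized counts in oxaliplatin samples 1 to 5, against 2769, 2926, 3036 and 2434 in vehicle samples 1 to 4, with oxaliplatin 1 and 5 inside the vehicle range (log2 fold change -0.16, SE 0.12, limma adjusted p = 0.430). Ehhadh, the peroxisomal bifunctional enzyme, averaged 192 ± 16.3 normalized counts in oxaliplatin samples and 191 ± 31.2 in vehicle samples (0.023, adjusted p = 0.942). Pecr, an enoyl-CoA reductase, did not pass (-0.15, adjusted p = 0.544).

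Grouped by compartment, 12 of 23 mitochondrial genes were lower (median log2 fold change -0.53), as were 3 of 6 genes of both organelles, namely Crat, Ech1 and Mlycd (median -0.50), and 1 of 5 peroxisomal genes (median -0.16). Over all genes tested 5.03% were lower. The peroxisomal call, Acaa1a, held in 3 of the 9 fits that left out 1 sample, and 5 genes are too few to set this class apart from the others. Among mitochondrial genes assigned to a chain length, 4 of 5 for medium or short chains were lower (median -0.56), against 4 of 10 for long chains (median -0.40). The long-chain class also holds the shuttle genes Acsl1, Cpt1a, Cpt1b, Slc25a20 and Cpt2, while the other class holds only enzymes of the spiral. Chain length and pathway step thus cannot be told apart by these counts. Of the calls in both classes, only Acads, Cpt2 and Hadha passed on leaving out each of the 9 samples in turn. With each sample centred on cardiomyocyte markers the medians were -0.18 for mitochondrial genes, -0.15 for genes of both organelles and 0.19 for peroxisomal genes. These medians were not tested against each other.

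Ratios of genes within a sample do not depend on how libraries were scaled, and 7 pairs were tested over samples by exact two-sided permutation with Benjamini-Hochberg adjustment over the 7, where 126 ways of dividing 5 and 4 samples allow a p no smaller than 0.00794. The pairs were chosen with earlier results of these data known and use the same values as the gene tests. Their p-values are therefore no separate support for the calls above. Ehhadh over Hadha, the peroxisomal against the mitochondrial multifunctional enzyme, had log2 ratios of -6.91, -6.70, -6.92, -6.71 and -6.87 in oxaliplatin samples 1 to 5, against -7.35, -7.51, -7.22 and -7.78 in vehicle samples 1 to 4. Each oxaliplatin sample was higher than each vehicle sample (difference 0.64, exact permutation p = 0.00794, adjusted p = 0.0278). Ehhadh itself changed little (log2 fold change 0.023), so the difference came from the lower Hadha. In bulk tissue a ratio may also vary with the mix of cell types, which was not tested. Acads over Acadl, short-chain against long-chain dehydrogenase, had log2 ratios of -3.19 ± 0.090 in oxaliplatin samples and -2.92 ± 0.091 in vehicle samples (SD, n = 5 and n = 4). It was lower in 5 of 5 oxaliplatin samples than in any vehicle sample (difference -0.27, exact permutation p = 0.00794, adjusted p = 0.0278). The ratio of Cpt2 to Cpt1b, inner against outer membrane, had log2 values of -1.93, -1.26, -1.30, -1.57 and -1.57 in oxaliplatin samples 1 to 5, against -1.13, -1.04, -0.98 and -0.92 in vehicle samples 1 to 4. The groups were apart, with oxaliplatin 1 lowest (difference -0.51, exact permutation p = 0.0159, adjusted p = 0.0278). Leaving out any 1 of the 4 vehicle samples moved its exact permutation adjusted p to between 0.05 and 0.0625, with differences of -0.55 to -0.48. Etfa over Etfb had log2 ratios of -0.30 ± 0.11 in oxaliplatin samples and -0.55 ± 0.041 in vehicle samples and was higher in 5 of 5 oxaliplatin samples than in all vehicle samples (difference 0.25, exact permutation p = 0.0159, adjusted p = 0.0278). Of these subunits Etfb fell and Etfa did not pass. For all 4 of these ratios, leaving out any 1 oxaliplatin sample gave no adjusted p below 0.05, with fewer divisions left to test.

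Other pairs did not pass. Hadha over Hadhb had log2 ratios of -1.33 ± 0.084 in oxaliplatin samples and -1.28 ± 0.15 in vehicle samples (difference -0.052, exact permutation p = 0.603, adjusted p = 0.603). Cpt1a over Cpt1b had -5.20, -4.18, -4.30, -3.81 and -4.63 in oxaliplatin samples 1 to 5, against -4.88, -4.89, -5.31 and -4.60 in vehicle samples 1 to 4, with oxaliplatin 1 and vehicle 3 lowest in their groups (difference 0.50, exact permutation p = 0.135, adjusted p = 0.189). Acaa1a over Acaa2 had log2 ratios of -4.22 ± 0.11 in oxaliplatin samples and -4.38 ± 0.26 in vehicle samples (difference 0.16, exact permutation p = 0.262, adjusted p = 0.306), and it passed without vehicle 4 (difference 0.28, exact permutation adjusted p = 0.0312).

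**Figure D3:**
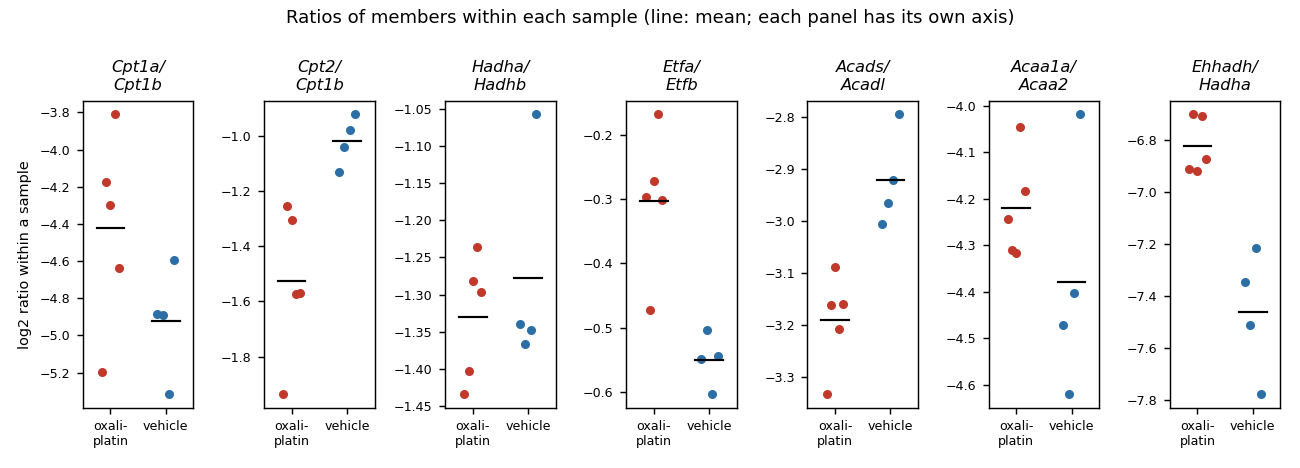
Log2 ratio of 2 genes within each oxaliplatin and vehicle sample (y axis, a separate scale per panel), with lines at group means. Groups do not overlap for Cpt2 over Cpt1b, Etfa over Etfb, Acads over Acadl and Ehhadh over Hadha, and overlap for the other 3 pairs.

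Levels can be set beside each other per length. Over the annotated exon bases of GENCODE M21, vehicle samples had most for Ech1 (75079 ± 10716 normalized counts per kilobase, SD, n = 4), then Etfb (51915 ± 6057), Hadhb (39217 ± 5324), Acaa2 (36236 ± 4172) and Acadvl (31098 ± 2147). Hadhb and Acaa2 lay within each other's spread. Among acyl-CoA dehydrogenases the order per kilobase was Acadvl, Acadl (18756 ± 1567), Acadm (15880.4 ± 1457) and Acads (2533 ± 173). Lowest were Acad10 (35.4 ± 4.13), Ehhadh (63.9 ± 10.5) and Cpt1a (173 ± 29.0), and Cpt1b had 7752 ± 673. Exons annotated but not used in heart would lower such a value.

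The samples of a group did not behave alike. Of the 35 genes, 22 had their lowest value of all samples in oxaliplatin 4 and 6 in oxaliplatin 3, while 15 had their highest in vehicle 2 and 12 in vehicle 3. Within the oxaliplatin group sample 1 was highest for 23 genes. The number of genes below every vehicle sample was 19 in oxaliplatin 1, 29 in oxaliplatin 2, 31 in oxaliplatin 3, 32 in oxaliplatin 4 and 24 in oxaliplatin 5. Vehicle 4 was the lowest vehicle sample for 27 genes. Such counts were not taken over all genes, so they may not be particular to the set. Oxaliplatin 4 and vehicle 4 had the lowest totals of normalized counts in their groups (29409543 and 30099346). Oxaliplatin 1 had the highest total of its group (36127712).

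Cardiomyocyte markers moved with the set. All 12 markers were measured and 12 had negative log2 fold changes. Their mean log2 level, with every gene set relative to its own mean across the 9 samples, was -0.154 ± 0.185 in oxaliplatin samples and 0.193 ± 0.0966 in vehicle samples (SD, n = 5 and n = 4). For the 35 genes it was -0.186 ± 0.149 in oxaliplatin samples and 0.232 ± 0.108 in vehicle samples. When each sample was centred on these markers, 3 of the 35 genes were lower and 0 higher, where 0.87% of all genes tested were lower and 27.1% higher. That scaling put the median over all genes tested at 0.33. The 3 were Ech1 (-0.49, adjusted p = 0.00892), Cpt2 (-0.43, adjusted p = 0.0139) and Crat (-0.34, adjusted p = 0.0190). On that scale the set had a median of -0.069, with 20 genes below 0 and 15 above, and the log2 fold changes of Cpt1b, Acadl and Echs1 among others turned positive.

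**Figure D4:**
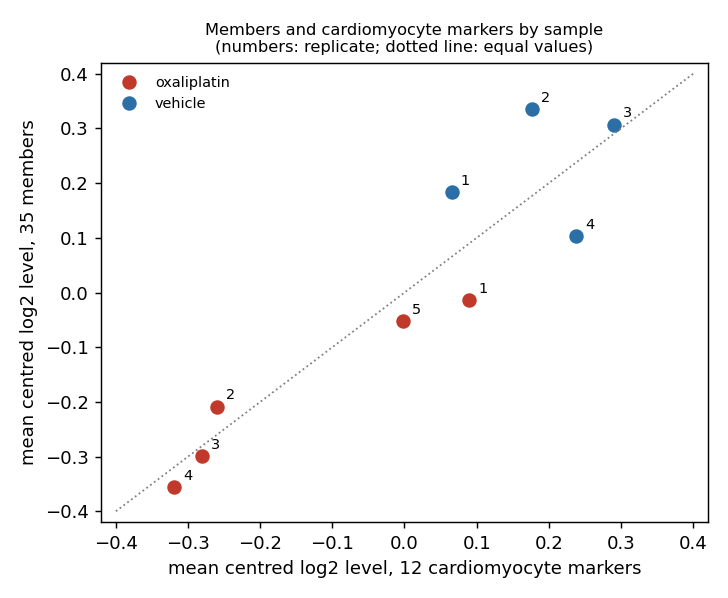
Mean centred log2 level of the 35 genes (y axis) against that of 12 cardiomyocyte markers (x axis), for each oxaliplatin and vehicle sample, numbered by replicate. Vehicle samples lie above oxaliplatin samples on the y axis, and both measures are lowest in oxaliplatin 4, 3 and 2.

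Other tissue markers differed too, and their part in the result was not tested. The summed level of 10 measured erythroid markers of 12 was 11585 to 363442 normalized counts in oxaliplatin samples and 226549 to 577149 in vehicle samples, and none was at 0. With their score as a covariate 6 of the 35 genes were lower and 0 higher, beside 1.78% lower and 5.66% higher of all genes tested. The 6 were Cpt2, Crat, Ech1, Hadha, Mlycd and Acot2, and the median of the set was -0.48. Atrial markers, all 10 measured, summed to 67556 to 934585 in oxaliplatin samples and 51913 to 452469.5 in vehicle samples. Without the 3 samples of high atrial level, 4 genes were lower, Cpt2, Crat, Ech1 and Mlycd, at a median of -0.40, beside 3.57% lower and 8.07% higher of all genes tested. Endothelial markers, 10 of 10 measured, summed to 20739 to 30186 in oxaliplatin samples and 16264 to 17216 in vehicle samples, and fibroblast markers, 10 of 10, to 73897 to 167298 in oxaliplatin samples and 75432 to 109671 in vehicle samples. Proliferation markers rose for 10 of 10 genes and summed to 544 to 2729 in oxaliplatin samples and 129.8 to 230.1 in vehicle samples. Smooth muscle and pericyte markers rose for 1 of 9 and summed to 21483 to 37089 in oxaliplatin samples and 14667 to 21567 in vehicle samples. Of 10 macrophage markers 1 rose and 1 fell, and they summed to 6408 to 16613 in oxaliplatin samples and 7812 to 9888 in vehicle samples. Endothelial markers rose for 2 of 10 genes and fibroblast markers for 1 of 10. Over all genes tested 9.23% were higher and 5.03% lower. The shares that rose in the smooth muscle, fibroblast and macrophage lists were near that of all genes. Bmp10 of the atrial and Bub1 of the proliferation list were at 0 in some sample.

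A list of further acyl-CoA genes, not all of them mitochondrial, changed in both directions. Of 29 measured of 32 listed, 7 fell (24.1%), 3 rose (10.3%) and 19 did not pass (median -0.26), beside 5.03% lower and 9.23% higher of all genes tested. The share that rose was thus close to that of all genes. Slc25a42, a carrier of coenzyme A into the matrix, had 1364 ± 177 normalized counts in oxaliplatin samples and 2447 ± 93.9 in vehicle samples (log2 fold change -0.85, SE 0.11, limma adjusted p = 0.000849). Cpt1c, the isoform described in brain, rose and had 311 ± 56.0 normalized counts in oxaliplatin samples and 139.7 ± 33.5 in vehicle samples (log2 fold change 1.16, SE 0.20, limma adjusted p = 0.00319). Acsl5, an acyl-CoA synthetase, rose too, with 485 ± 33.8 normalized counts in oxaliplatin samples and 312 ± 17.1 in vehicle samples (log2 fold change 0.63, SE 0.11, limma adjusted p = 0.00346). Pcca of propionyl-CoA carboxylase fell (-0.49, adjusted p = 0.00834).

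Peroxisomal genes outside the set mostly did not pass. Of 32 measured of 34, 2 fell (6.25%), 1 rose (3.12%) and 29 did not pass (median -0.16), so that the share that fell was near the 5.03% and the share that rose below the 9.23% of all genes tested. Pex11a, a factor of peroxisome division, had 327 ± 50.8 normalized counts in oxaliplatin samples and 615 ± 19.1 in vehicle samples (log2 fold change -0.92, SE 0.13, limma adjusted p = 0.00117). Pex6, of the import machinery, fell by 1.02 on the log2 scale (adjusted p = 0.0193), a call lost without vehicle 3 (0.0629). Slc25a17, a peroxisomal carrier of coenzyme A and nucleotides, rose by 0.51 on the log2 scale (adjusted p = 0.00513).

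In a list of malonyl-CoA and AMP-activated kinase genes 2 of 10 fell, 0 rose and 8 did not pass, beside 5.03% lower of all genes tested. Acacb, the acetyl-CoA carboxylase that makes malonyl-CoA at mitochondria, had 2098 ± 94.4 normalized counts in oxaliplatin samples and 3121 ± 668 in vehicle samples (log2 fold change -0.55, SE 0.13, limma adjusted p = 0.0133), and Mid1ip1, which promotes assembly of these carboxylases, fell by 0.74 on the log2 scale (adjusted p = 0.0120). Genes of synthesis and of breakdown of malonyl-CoA, Acacb and Mlycd, were therefore both lower. Among 22 PPAR, ERR and PGC-1 regulators 1 rose and 1 fell (4.55% each), which is no more than the shares of all genes tested. Ppargc1a rose by 0.45 on the log2 scale (adjusted p = 0.0187), a call lost without vehicle 1 (0.0557), and its paralog Ppargc1b fell by 0.58 (adjusted p = 0.0105). The receptor Ppara, a known activator of fatty acid oxidation genes, had 1269.6 ± 224 normalized counts in oxaliplatin samples and 1312 ± 165 in vehicle samples (-0.056, adjusted p = 0.83). Esrra did not pass (-0.48, adjusted p = 0.104), except without vehicle 1 (0.0488). Of 9 measured genes of 11 for carnitine and riboflavin supply, 1 fell, the carnitine synthesis enzyme Aldh9a1 (-0.43, adjusted p = 0.0364), and 1 rose, the riboflavin transporter Slc52a3 (1.30, adjusted p = 0.0276), 11.1% each beside 5.03% lower and 9.23% higher of all genes tested. Aldh9a1 lost its call without oxaliplatin 1 (0.0510), oxaliplatin 3 (0.0679), oxaliplatin 4 (0.0590), oxaliplatin 5 (0.0570), vehicle 1 (0.0832), vehicle 2 (0.12) and vehicle 3 (0.0791), and Slc52a3 without oxaliplatin 4 (0.0547), oxaliplatin 5 (0.0622), vehicle 1 (0.0583), vehicle 3 (0.0943) and vehicle 4 (0.0731).

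Of 22 subunits of pyruvate dehydrogenase and the TCA cycle, 0 passed in limma, beside 5.03% lower and 9.23% higher of all genes tested. For a list of 22 genes, 0 lower is near that share. Negative log2 fold changes were found for 18 (median of the list -0.21), beside 52.3% of all genes tested. The number with an unadjusted limma p under 0.05 was 4, against 25 of the 35 genes of the set, and was not counted over all genes. Centred on cardiomyocyte markers, the median of these subunits was 0.14, that of the further acyl-CoA genes 0.086 and that of other peroxisomal genes 0.18. The difference between this list and the fatty acid oxidation genes was not tested.

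**Figure D5:**
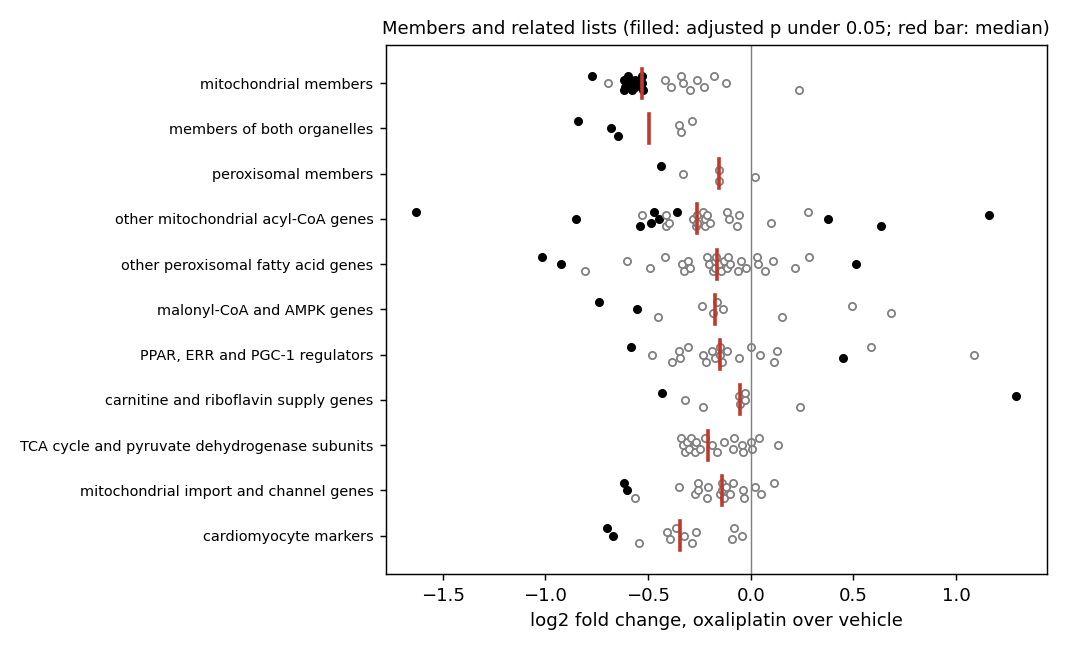
Log2 fold changes (oxaliplatin over vehicle, x axis) of each measured gene in the set, split by compartment, and in related lists and cardiomyocyte markers; filled points have an adjusted p under 0.05 and red bars are medians. Medians run from -0.53 for mitochondrial genes of the set to -0.050 for carnitine and riboflavin supply genes on the deposited scaling.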

How the data were processed

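RNA of heart tissue was sequenced in 5 oxaliplatin and 4 vehicle samples, grouped by their titles. A SMARTer kit was used for libraries, per the labels' protocols. For 13795 genes the deposited table gives a signal that the authors had normalized, a normalized count per the file headers. The submitters' processing notes name STAR 2.5.1a, Partek and DESeq2, without role or order. No source used here gives the genome build, annotation or strandedness of counting. Reads of overlapping or near-identical genes may be mixed, and 8 of the 35 genes share exon bases with another gene in GENCODE M21. Whole reads could not be recovered, since only 73.0% to 75.9% of values in a sample fell within 0.02 of a whole number of estimated reads, and a test on the log scale replaced a count model.

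The comparison used limma 3.58.1 (R 4.3.3; trend and robust options) on log2 of the normalized count plus 1, for 13788 genes whose mean reached 10, all 35 among them. The added 1 makes fold changes of low genes too small. P-values are two-sided and adjusted by Benjamini-Hochberg over all genes tested. The steps were tested on simulated data. Sample values are given for the 3 genes of smallest p per role and for Cpt1a and Cpt1b, and up to 4 passing genes per list are named, with Ppara, Ppargc1a, Esrra and Acacb; 1 further gene of that rule is not reported here. Hadhb is given by its mean. The genes, lists and tests were chosen with earlier results of these data known. Promoter sequences are RefSeq's on GRCm38.p6, and gene positions come from GENCODE M21 (GRCm38) by symbol. Alternatives were pseudocount, filter, scaling, limma settings, array weights, a replicate block, marker scores as covariates and leaving out samples.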

Additional observations from a re-analysis of the deposited data

Results flagged for a closer look

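Each gene and ratio was searched for a sample far from the rest of its group, in 84 groups of 4 or 5 samples, and 4 samples were found; chance gives about 1 in 20 groups. Cpt1a in vehicle 3 had 560.4 normalized counts, and the nearest vehicle sample had 786. Acot2 in oxaliplatin 5 had 3814 normalized counts, and the nearest oxaliplatin sample had 2875. Pecr in vehicle 4 had 299.5 normalized counts, and the nearest vehicle sample had 359.7. The log2 ratio of Hadha to Hadhb was -1.06 in vehicle 4 and -1.34 in the nearest vehicle sample, and without that sample the group difference was 0.021 in place of -0.052.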

How the results depend on the processing

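The 16 genes lower were also 16 with pseudocount 10, with no filter and with a mean of at least 100, where all 35 kept their direction and side of the threshold, and 14 without trend or robust moderation. Of all genes 3.78% were lower in that last fit. The genes of the set that were lower became 20 after quantile normalization (7% of all genes lower) and 18 with an atrial covariate (7.51%). Scaling to a common total without mitochondrially encoded genes gave 17 (2.81%). They were 3 when centred on cardiomyocyte markers, 28 with array weights (11.4% of all genes lower), 4 without vehicle 1, oxaliplatin 2 and oxaliplatin 4, and 6 with the erythroid score as a covariate, and in each fit 0 were higher; the cause was not tested. Leaving out each sample gave 8 to 21 lower and 0 higher: 10 without oxaliplatin 3, 10 without oxaliplatin 4, 8 without vehicle 2 and 9 without vehicle 3, and 8 of the 16 passed in all 9 such fits (Cpt2, Crat, Acads, Hadha, Ech1, Decr1, Mlycd and Acot2). Over all genes, 694 were lower and 1272 higher. These were 388 lower after the common total, 120 lower and 3740 higher when centred on cardiomyocyte markers, 1566 and 1975 with array weights, 245 and 780 with the erythroid score, and 321 to 880 lower and 789 to 1508 higher on leaving out a sample; the causes were not tested. Deviations of same-numbered samples of the groups had correlations of -0.27, -0.06, -0.09 and 0.25 for numbers 1 to 4. Samples of unlike number had correlations from -0.45 to 0.42. These values show no pairing by number, but so few cannot exclude it. With the replicate number as a block, over replicates 1 to 4, 15 genes were lower, beside 3.6% of all genes.

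Genes that did not pass changed sign in some fits. Centred on cardiomyocyte markers, log2 fold changes were 0.011 for Slc22a5, 0.083 for Cpt1b, 0.051 for Acadl, 0.17 for Acad9, 0.060 for Acad10, 0.0051 for Acad11, 0.12 for Echs1, 0.017 for Etfa, 0.0092 for Etfdh, 0.23 for Acot13, 0.018 for Abcd3, 0.19 for Hsd17b4 and 0.19 for Pecr. Ehhadh was at -0.027 after quantile normalization, -0.095 with array weights, -0.075 with the erythroid score, and -0.10 to 0.089 on leaving out a sample, and Acot13 was at 0.037 without the 3 samples. The median of the set ran from -0.47 to -0.36 on leaving out a sample.

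Ratios kept their direction without the 3 samples, at -0.62 for Cpt2 over Cpt1b, 0.26 for Etfa over Etfb, -0.30 for Acads over Acadl and 0.60 for Ehhadh over Hadha, and with the replicate block, at -0.50, 0.25, -0.27 and 0.65; neither design has enough samples to pass. On leaving out a sample the differences ran 0.34 to 0.69 for Cpt1a over Cpt1b, -0.58 to -0.41 for Cpt2 over Cpt1b, -0.082 to 0.021 for Hadha over Hadhb, 0.21 to 0.29 for Etfa over Etfb, -0.30 to -0.23 for Acads over Acadl, 0.078 to 0.28 for Acaa1a over Acaa2, 0.54 to 0.72 for Ehhadh over Hadha.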

Other observations

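Mitochondrial import and channel genes were measured as a further comparison, 21 of 22 listed. Of these 2 fell (9.52%, beside 5.03% of all genes tested), 0 rose and 19 did not pass, with a median log2 fold change of -0.14. The 2 were the matrix chaperonin genes Hspd1, with 8999 ± 1419 normalized counts in oxaliplatin samples and 13748 ± 1674 in vehicle samples (log2 fold change -0.62, SE 0.14, limma adjusted p = 0.0111), and Hspe1, its co-chaperonin, with 3244 ± 460.3 normalized counts in oxaliplatin samples and 4961 ± 1018 in vehicle samples (log2 fold change -0.60, SE 0.15, limma adjusted p = 0.0170). Hspe1 did not pass without vehicle 3 (0.0608). Hspe1 encodes the lid of the chamber that Hspd1 forms.

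Of 10 adipocyte markers listed, 9 were measured, with Plin1 and Ucp1 at 0 in some samples. Their summed level was 30842 to 53437 normalized counts in oxaliplatin samples and 17691 to 25678 in vehicle samples. Most of that sum is Fabp4, which vessels also express, at 34649 ± 11531 normalized counts in oxaliplatin samples and 17215 ± 3728 in vehicle samples (0.96, adjusted p = 0.0180). Without oxaliplatin 2, the sample with Ucp1, 15 of the 35 genes were lower and 0 higher in limma, beside 6.39% lower and 10.9% higher of all genes tested.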
